A study of Mus musculus with 2 samples.

Results

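Oligodendrocyte nuclei of the mouse hippocampus were examined in 2 single-nucleus RNA libraries, 1 labelled CAPZA2+/-, a heterozygous Capza2 knockout, and 1 labelled wild type. The nuclei were chosen by their own counts. A barcode was kept if at least 500 genes were detected in it and at most 5% of its unique molecular identifiers (UMIs, which count captured transcripts) came from mitochondrial genes. It was taken as an oligodendrocyte nucleus if it held at least 4 UMIs in sum of Mobp, Mog, Mag, Opalin and Aspa. It also had to hold at most 1 UMI of Rbfox3, 0 of Slc17a7, 0 of Gad1 and Gad2 together, at most 1 of Gja1 and Aqp4 together, 0 of Pdgfra, and at most 1 of Csf1r and Inpp5d together. This gave 1175 nuclei, 698 of 7211 barcodes kept in the heterozygote library and 477 of 6424 in the wild-type library. The study compared the makeup of hippocampal cell populations between the genotypes. The labels name no strain, age, sex or further allele for either genotype and no drug given to the animals, and they do not say whether a library pooled animals. Nuclei of both were released in a buffer with actinomycin, a blocker of transcription. Each genotype had 1 library, so the differences below are between 2 libraries, carry no test, and have intervals that cover counting error only.

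Oligodendrocytes wrap axons in myelin, a stack of membrane that is rich in lipid and held together by a small set of abundant proteins. They arise from precursors marked by Pdgfra, pass through a short newly formed stage, and then keep expressing myelin genes as mature cells while feeding metabolites to the axon. The protein made from Capza2 is one of the alpha chains of the actin capping protein, which closes the growing end of a filament. Actin filaments drive the leading edge of the oligodendrocyte process as it spreads around the axon.

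The members were shallow nuclei. They held a median of 1773 UMIs and 1129 genes in the heterozygote library and 1912 UMIs and 1178 genes in the wild-type library, where all other barcodes kept held medians of 6814 and 7435 UMIs. Their UMIs summed to 1424592 and 1019490. The 5 marker genes together gave a median of 9 UMIs per nucleus in both libraries, with ranges of 4 to 70 and 4 to 67. Of 13 barcode sequences found in both libraries, 0 were members in both. Xist gave 1 and 0 UMIs in the members and the Y-linked gene Uty 251 and 155, so both libraries carried Y-linked transcripts.

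The rule took only part of the nuclei that carried the markers. In the heterozygote library 1323 barcodes held at least 4 marker UMIs, and 625 of these (47.2%) were left out by another gene. In the wild-type library 939 reached the threshold and 462 (49.2%) were left out. The gene that left out most was Slc17a7, the vesicular glutamate transporter of excitatory neurons, with 411 and 315 barcodes. By Slc17a7 alone 187 and 153 barcodes were left out, and 81.8% and 72.5% of those held a single UMI of it. Barcodes left out by the neuronal gene Rbfox3, 198 and 141 of them, were deep, with medians of 15951.5 and 14820 UMIs. The remaining barcodes therefore still hold oligodendrocyte transcripts, and values of other nuclei are given below for the 5664 heterozygote and 5328 wild-type barcodes with at most 1 marker UMI. Just inside the threshold, the 58 heterozygote and 44 wild-type nuclei with 4 marker UMIs held on average 2.71 and 2.64 UMIs of Mbp. Just outside it, the 45 and 37 barcodes with 3 marker UMIs that met the other conditions held 2.51 and 2.38.

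The label oligodendrocyte fitted the markers. Prr5l, a marker that the rule did not use, was detected in 77.2% of heterozygote and 76.8% of wild-type members after each nucleus was thinned to 1000 UMIs, against 0% and 1.33% of microglia. Microglia nuclei, selected on Csf1r and Inpp5d with at most 1 UMI of the 5 marker genes, had medians of 1628.5 and 1624 UMIs. They serve as a rough guide to free RNA, since they should lack myelin transcripts, and free RNA itself was not estimated. The limit on marker UMIs left out barcodes with more of them, so low shares of oligodendrocyte genes in microglia were partly set by the choice. Mbp, which fuses the inner faces of the myelin membrane, was detected in 89.8% and 87.7% of thinned members and in 9.35% and 1.33% of thinned microglia. Thinning left out 15 heterozygote and 7 wild-type members. Before thinning, Mbp had a UMI in 96.8% and 95.6% of members and Prr5l in 90.1% and 91.4%. The Schwann cell genes Prx and Pmp2, which mark peripheral myelin, had 0 UMIs in all members.

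The genes that stood highest in the members against all other barcodes were a description of the choice, and they mixed myelin genes with less familiar ones. Beside the marker genes, the 25 highest held Hapln2, a link protein of the perinodal matrix, Fa2h and Ugt8a, enzymes of myelin galactolipid synthesis, the neuregulin receptor Erbb3, and the plexin Plxnb3. They also held Tnni1, a slow skeletal troponin, the glycosyltransferases Galnt5 and Galnt6, and Fbxw15, Insc, Cyp2j12 and Slc13a1. Tnni1 gave 315 UMIs in the heterozygote and 163 in the wild-type members, at log2 ratios over all other barcodes of 5.37 and 5.32. Hapln2 gave 356 and 255 UMIs, at 5.17 and 5.53. Against the barcodes with at most 1 marker UMI these ratios were 8.24 and 8.00 for Hapln2, and for Prr5l they were 9.90 and 10.09.

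Promoters of these genes were read for a short SOX-type motif (AACAAT) and a MYRF-type motif (CTGGCAC), on both strands, in the 250 bases before each RefSeq start on GRCm38.p6. SOX10 and MYRF are the transcription factors that switch on myelin genes. Of the 25 genes, 20 had an entry. The SOX-type letters were found for 4 of 20 genes (20%), against 10.9% of 27025 genes in the whole table, and the MYRF-type letters for 4 of 20, against 4.83%. These are 4 genes each, and a match is only a match of letters. Shown are the only 1 of the 20 genes with both motifs, Hapln2 (chr3:88027512-88027761, minus strand), a SOX-type case, the outside marker Prr5l (chr2:101883028-101883277, minus strand), and a MYRF-type case, the adhesion protein Mag (chr7:30914864-30915113, minus strand). Each is written 5′ to 3′ on the gene's strand with the motif matches in capitals.
Hapln2: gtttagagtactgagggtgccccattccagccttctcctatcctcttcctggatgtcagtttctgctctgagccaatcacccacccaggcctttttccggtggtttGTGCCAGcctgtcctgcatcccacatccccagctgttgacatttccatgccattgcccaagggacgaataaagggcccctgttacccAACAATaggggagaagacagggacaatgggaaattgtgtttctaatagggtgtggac
Prr5l: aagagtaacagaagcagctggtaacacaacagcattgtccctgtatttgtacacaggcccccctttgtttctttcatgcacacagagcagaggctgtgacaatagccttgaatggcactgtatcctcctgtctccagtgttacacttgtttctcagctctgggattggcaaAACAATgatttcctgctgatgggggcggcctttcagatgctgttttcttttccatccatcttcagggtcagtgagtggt
Mag: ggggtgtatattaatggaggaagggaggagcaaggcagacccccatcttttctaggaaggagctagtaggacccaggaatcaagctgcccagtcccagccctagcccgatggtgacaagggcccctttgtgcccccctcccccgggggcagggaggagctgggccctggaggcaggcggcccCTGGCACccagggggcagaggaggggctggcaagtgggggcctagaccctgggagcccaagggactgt

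Oligodendrocyte nuclei made up a larger share of the heterozygote library. They were 698 of 7211 barcodes there, or 9.68% (exact Clopper-Pearson 95% interval 9.01 to 10.4), and 477 of 6424, or 7.43% (6.80 to 8.09), in the wild-type library. The ratio of shares was 1.30 (exact conditional binomial 95% interval 1.16 to 1.47). The other glia, chosen by their own markers, gave ratios whose intervals held 1: 1.21 (0.984 to 1.48) for astrocytes with 230 and 170 nuclei, 1.26 (0.939 to 1.71) for microglia with 112 and 79, and 0.859 (0.625 to 1.18) for oligodendrocyte precursors with 81 and 84. The differences between these ratios were not tested. A share depends on all other nuclei in the library, and with 1 library per genotype, genotype and library cannot be told apart. The filter on genes and mitochondrial UMIs kept 7211 of 7801 heterozygote and 6424 of 6512 wild-type barcodes. Shares under a looser filter were not measured.

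**Figure D1:**
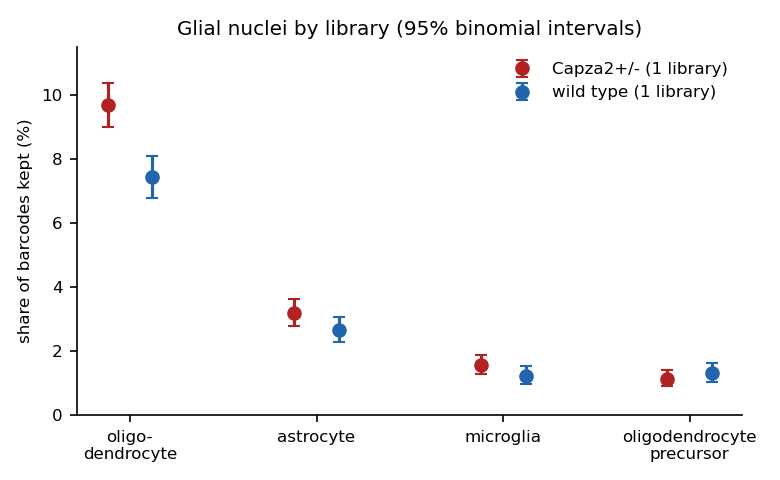
Share of barcodes kept (percent) that were oligodendrocyte, astrocyte, microglia or oligodendrocyte precursor nuclei in the Capza2+/- library (red) and the wild-type library (blue), 1 library each, with exact 95% binomial intervals for counting error. The oligodendrocyte points stand at 9.68% and 7.43% with intervals that do not overlap, and the intervals of the other classes overlap.

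Capza2 was lower in the heterozygote members. Capza2 (ENSMUSG00000015733, GRCm38 chromosome 6, 17636234 to 17666972, plus strand) gave 145 UMIs in 698 heterozygote nuclei and 173 UMIs in 477 wild-type nuclei, which is 102 and 170 CPM (a gene's UMIs per 1000000 UMIs of the members). Its log2 ratio, heterozygote over wild type, was -0.74 (95% interval -1.07 to -0.41), and a UMI was seen in 18.1% and 28.7% of nuclei. In the barcodes with at most 1 marker UMI the ratio was -0.34 (-0.40 to -0.28), with 3528 and 4378 UMIs. It was -0.66 (-1.59 to 0.24) in precursors, -0.25 (-0.73 to 0.24) in astrocytes and 0.02 (-0.51 to 0.57) in microglia, where at most 75 UMIs stood behind a value. The sources used here do not give which part of Capza2 was deleted, so whether these 3′ tags lie in it is unknown.

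The other capping protein subunits with counts gave ratios nearer to 0 than Capza2 did, on few UMIs. The interval of Capza1 overlapped that of Capza2, and the differences were not tested. Capza1, the other broadly expressed alpha subunit, gave 104 and 89 UMIs and a log2 ratio of -0.26 (-0.68 to 0.17). Capzb, the beta subunit, gave 85 and 64 UMIs and a ratio of -0.07 (-0.56 to 0.42). Capza3, the testis subunit, had 0 UMIs in both libraries. Both intervals held 0.

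Across all genes the 2 libraries' members were close. A floor of 200 UMIs, summed over the libraries, left 2505 genes, and their median log2 ratio was 0.01, with quartiles of -0.13 and 0.16. Of all genes tested 51.3% were above 0, 11.2% had intervals above 0 and 8.98% had intervals below 0. A gene was called where its CPM differed at least 1.5-fold and the 95% interval left out 1. Higher in the heterozygote were 32 genes (1.28% of those tested) and lower were 25 (0.998%). These calls describe 2 libraries, and their intervals leave out the spread between nuclei.

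The lower calls depended on 15 nuclei. Clustering the members set apart cluster 3, with 8 heterozygote and 7 wild-type nuclei, a median of 7125 UMIs and high counts of neuronal genes such as Cntn5, Nrg3os and Dlgap2. Of all members' UMIs it contributed 4.49% (heterozygote) and 4.95% (wild type). Its median doublet score, a measure of how much a barcode looks like a mix of 2 nuclei, was 0.200, against at most 0.0247 in the other clusters. The neuron marker genes summed to 12428 CPM in it and to 1005 to 1712 CPM in the others. Without these nuclei 2350 genes were tested and 22 were called higher, 21 of them among the 32. Only 7 were called lower: Capza2, Csmd2, Fgf12, Nrg3 and Sorcs3, which were 5 of the 25, with Synpr and the gene model Gm816. Of the remaining lower genes, 7 stayed above the floor without a call. Another 13 went under the floor, where 3 were still past 1.5-fold with intervals that left out 1: Dscam at -1.09 (-1.54 to -0.66), Zfc3h1 at -0.69 (-1.11 to -0.26) and Stx8 at -0.62 (-1.04 to -0.20). Removing instead the members with the top doublet scores took 8 of the 15 nuclei of cluster 3 and changed the counts little. It left 24 genes called lower (0.994% of 2414 tested) and 29 called higher (1.2%).

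The lowest genes show how far a few nuclei reached. Dpp10, a subunit of A-type potassium channels, gave 32 heterozygote and 283 wild-type UMIs, a log2 ratio of -3.63 (-4.20 to -3.10). In the wild-type library 247 of the 283 lay in cluster 3, and 95 in a single nucleus. Without cluster 3 it gave 31 and 36 UMIs and -0.71 (-1.45 to 0.03). Sgcz, zeta-sarcoglycan, moved from -3.09 (-3.68 to -2.55) to -0.24 (-1.03 to 0.55). Cntnap2, a neuronal adhesion protein of the neurexin family, moved from -1.58 to -0.15, and the neuronal noncoding RNA Meg3 from -1.06 to 0.02. Nrxn3, Tenm2, Nav3 and Pde4d also lost the call, and Tafa1 and Epha6 went under the floor. Nrxn3 at -0.52 (-0.85 to -0.19), Nav3 at -0.48 (-0.76 to -0.19) and Tenm2 at -0.34 (-0.55 to -0.14) kept wholly negative intervals without cluster 3. Pde4d then stood at -0.34 (-0.69 to 0.01), Epha6 at -0.41 (-0.85 to 0.04) and Tafa1 at -0.02 (-0.62 to 0.58). Among the higher genes, Lrrtm4, a postsynaptic adhesion protein, turned from 0.90 (0.67 to 1.14) to -0.34 (-0.71 to 0.04). Of its UMIs, 415 of 545 in the heterozygote and 92 of 209 in the wild type lay in cluster 3. Trpm3, a cation channel, had 109 of its 221 heterozygote and 45 of its 83 wild-type UMIs there, and stood at 0.93 with and 1.07 (0.53 to 1.64) without that cluster, on 112 and 38 UMIs. The part that mixed droplets play in these values was not tested.

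Csmd2, Sorcs3 and Fgf12 were called lower with and without those nuclei. Csmd2, a large transmembrane protein with CUB and sushi domains, gave 169 and 199 UMIs, at 119 and 195 CPM, a log2 ratio of -0.72 (-1.02 to -0.42) that was -0.71 (-1.02 to -0.39) without cluster 3. It was detected in 16.9% of heterozygote and 28.1% of wild-type members. Sorcs3, a sorting receptor, gave 106 and 146 UMIs and -0.94 (-1.32 to -0.57), or -0.85 (-1.23 to -0.47) without cluster 3. Fgf12, an intracellular regulator of sodium channels, stood at -0.62 (-0.97 to -0.28) without it. Nrg3, a ligand of Erbb4, kept a call at -0.68 (-1.01 to -0.35), although 231 of its 374 heterozygote and 292 of its 455 wild-type UMIs lay in cluster 3. When no barcode was left out for genes of other lineages, the ratio was -0.18 for Csmd2, and it turned to 0.10 for Sorcs3 and 0.080 for Nrg3. With at least 8 marker UMIs Nrg3 also turned, to 0.091. In the barcodes with at most 1 marker UMI the ratios were -0.08 for Csmd2, -0.11 for Sorcs3 and -0.05 for Nrg3. Whether the members differ from those barcodes was not tested.

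**Figure D2:**
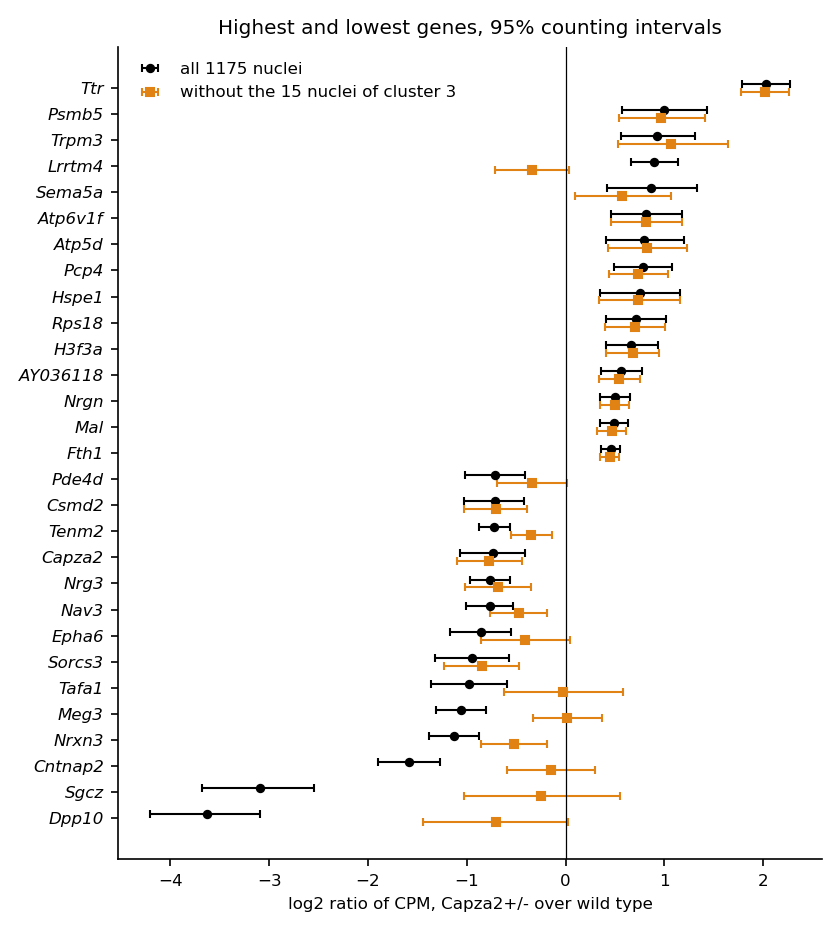
Heterozygote over wild-type CPM (log2 ratio) with 95% counting intervals for 15 genes among the highest and 14 among the lowest in all 1175 oligodendrocyte nuclei (black circles) and without the 15 nuclei of cluster 3 (orange squares). Dpp10 moves from -3.63 to -0.71 and Lrrtm4 from 0.90 to -0.34, while Capza2, at -0.74 and -0.77, and Ttr, at 2.03 and 2.02, stay where they were.

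Ttr, the thyroid hormone carrier made by choroid plexus epithelium, was the highest gene apart from the gene model AC149090.1, which gave 620 and 98 UMIs and stood at 2.18 (1.87 to 2.50). Ttr gave 963 heterozygote and 169 wild-type UMIs, at 676 and 166 CPM and a log2 ratio of 2.03 (1.79 to 2.27). It stood at 1.98 in the barcodes with at most 1 marker UMI and at 2.15 in microglia. After thinning, it was detected in 48.8% and 17.4% of members and in 55.1% and 13.3% of microglia. How much of the members' share was free RNA was not tested. The other 7 choroid plexus markers held at most 14 UMIs each in the members of a library.

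The other higher genes stood between 0.46 and 0.99 among the 15 named highest, Lrrtm4 and Trpm3 aside. Psmb5, a catalytic subunit of the proteasome, gave 178 and 64 UMIs, at 125 and 62.8 CPM, and a log2 ratio of 0.99 (0.57 to 1.43). It was seen in 22.3% and 12.6% of nuclei. Atp6v1f, a subunit of the vacuolar proton pump, stood at 0.82 (0.46 to 1.18), and Atp5d, a subunit of the mitochondrial ATP synthase, at 0.80 (0.41 to 1.20). In the barcodes with at most 1 marker UMI the same genes stood at 0.35, 0.21 and 0.11. Rps18 of the small ribosomal subunit stood at 0.71, the histone gene H3f3a at 0.67, and the mitochondrial chaperonin gene Hspe1 at 0.75. Pcp4, a calmodulin-binding protein of neurons, stood at 0.78 (0.49 to 1.08), beside 0.47 in the barcodes with at most 1 marker UMI. Nrgn, a postsynaptic protein of excitatory neurons, stood at 0.50 (0.35 to 0.65). Its ratio was 0.28 in the barcodes with at most 1 marker UMI. Its thinned share of 56.1% and 47.7% of members lay beside 57.0% and 52.0% of microglia. The part of free RNA in these values was not tested.

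Myelin genes outside the rule were slightly higher in the heterozygote members, and 0 reached the call. Of 15 such genes 13 had at least 200 UMIs. All 13 ratios were above 0, with a median of 0.18 beside 0.01 for all genes. Of the 13 intervals 6 lay above 0, beside 11.2% of all genes tested. Mbp gave 3389 and 2345 UMIs, at 2379 and 2300 CPM and a log2 ratio of 0.05 (-0.03 to 0.13). Mal, a raft protein that sorts myelin cargo, gave 1160 and 591 UMIs, at 814 and 580 CPM and a ratio of 0.49 (0.35 to 0.64). Mbp was thus near equal and Mal stood well above the median gene. Omg, an oligodendrocyte glycoprotein that binds the Nogo receptor, stood at 0.57 (0.16 to 0.99) on 153 and 74 UMIs. The tetraspanin Cd9 stood at 0.33 (0.06 to 0.61), the phosphodiesterase Cnp at 0.28 (0.07 to 0.50), and the cytoskeletal protein Ermn at 0.25 (0.04 to 0.46). The tight junction protein Cldn11 stood at 0.05 (-0.14 to 0.24) and Gpm6b at 0.01 (-0.10 to 0.13).

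The same direction was seen outside the members. In the barcodes with at most 1 marker UMI, 12 of the 13 genes were above 0 with a median of 0.28, where Mal stood at 0.75 (0.58 to 0.91) and Mbp at -0.01 (-0.09 to 0.08). The part of free RNA in the members' ratios was not tested. Among the genes of the rule, Mog stood at 0.14 (0.03 to 0.25), Opalin at 0.15 (0.00 to 0.30), Mag at 0.03, Aspa at 0.00 and Mobp at -0.22 (-0.33 to -0.10), but the rule used these counts in choosing the nuclei. Prr5l gave 2420 and 1972 UMIs and stood at -0.19 (-0.27 to -0.10).

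**Figure D3:**
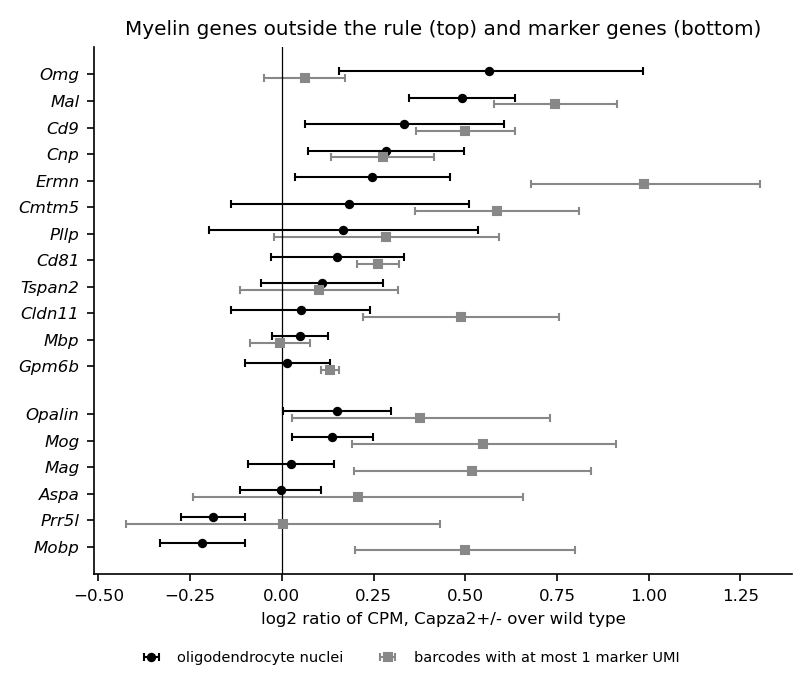
Heterozygote over wild-type CPM (log2 ratio) with 95% counting intervals for 12 myelin genes outside the rule (top block), and for the 5 rule genes with Prr5l (bottom block), in oligodendrocyte nuclei (black circles) and in barcodes with at most 1 marker UMI (grey squares). In the members these points run from 0.01 for Gpm6b to 0.57 for Omg, and Mal stands at 0.49 in members and 0.75 in the other barcodes.

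Genes of myelin lipid synthesis were split. Of 25, 9 had at least 200 UMIs, 5 were above 0, and their median was 0.18. Scd2, the main stearoyl-CoA desaturase of brain, gave 1836 and 975 UMIs, at 1289 and 956 CPM, and stood at 0.43 (0.32 to 0.54). It stood at 0.38 in the barcodes with at most 1 marker UMI. Cers2, which makes the very long chain ceramides of myelin, stood at 0.49 (0.13 to 0.86), and Acsl3, an acyl-CoA synthetase, at 0.36 (0.07 to 0.66). Ugt8a and Fa2h, which make galactosylceramide and its hydroxylated form, stood at -0.01 (-0.13 to 0.12) and -0.14 (-0.31 to 0.04). Gal3st1, which turns galactosylceramide into sulfatide, stood at -0.30 (-0.66 to 0.07). Of the sterol genes only the regulator Srebf2 reached 200 UMIs, at -0.14 (-0.50 to 0.22).

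Transcription factors of the lineage stood close to equal in the most counted members of the list. Of 12, 6 were tested, with a median of -0.05. St18, a zinc finger factor of the Myt1 family, gave 6049 and 4611 UMIs and -0.09 (-0.15 to -0.04), and Zeb2, which promotes myelination, gave 3514 and 2529 and -0.01 (-0.08 to 0.07). Sox10, the master regulator of the lineage, gave 327 and 169 UMIs and 0.47 (0.20 to 0.75), and Tcf7l2 gave 173 and 85 and 0.54 (0.16 to 0.93). Of the Tcf7l2 UMIs, 68 and 18 lay in the 51 nuclei of cluster 2 described below, where its ratio was 1.71 (0.95 to 2.55), beside 0.42 (-0.25 to 1.12) in cluster 0 and -0.13 (-0.79 to 0.55) in cluster 1. Myrf, the factor that starts the myelin programme, gave 171 and 145 UMIs and -0.24 (-0.57 to 0.08). Olig1 gave 100 and 43 UMIs and Olig2 37 and 20, under the floor.

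Axon contact genes leaned slightly lower. Of 12, 10 were tested, with a median of -0.05 and 3 above 0. Cadm1, an adhesion molecule of the nectin-like family, gave 425 and 424 UMIs, at 298 and 416 CPM, and stood at -0.48 (-0.68 to -0.28), against -0.17 in the barcodes with at most 1 marker UMI. The scaffold Dlg1 stood at -0.21 (-0.35 to -0.07). Nfasc, the glial side of the paranodal junction, stood at -0.04 (-0.20 to 0.12), Cntn2 at 0.08 (-0.16 to 0.32), and Hapln2 at 0.00 (-0.24 to 0.24). Cadm4, the adhesion molecule on the glial side of the internode, gave 125 and 66 UMIs and stood at 0.44 (0.00 to 0.89), under the floor.

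Genes for gap junctions and ions stood close to equal. Of 11, 6 were tested, with a median of 0.14. Gjc3, a glial connexin, gave 1109 and 743 UMIs and 0.10 (-0.04 to 0.23), the chloride importer Slc12a2 stood at -0.12 (-0.26 to 0.03), and Atp1b3 of the sodium pump at 0.28 (0.03 to 0.53). The connexin Gjb1 gave 68 and 39 UMIs, under the floor. Among receptors, Erbb4, a neuregulin receptor, gave 2885 and 2179 UMIs and -0.08 (-0.16 to 0.00), Fgfr2 stood at -0.12 (-0.22 to -0.01), and Erbb3 at 0.03 (-0.37 to 0.43). Of 16 receptor and signalling genes tested, with a median of -0.03, only 1 was called, higher, beside 1.28% of all genes tested. This was the semaphorin Sema5a, at 0.87 (0.42 to 1.33). It gave 148 and 58 UMIs, of which 35 and 4 lay in cluster 3, and 113 and 54 without it, under the floor.

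Iron and metabolic support genes stood above 0 without a call. All 9 tested of 15 were above 0, with a median of 0.18, and 3 intervals lay above 0. Fth1, the ferritin heavy chain that oligodendrocytes hold in large amounts, gave 2644 and 1377 UMIs, at 1856 and 1351 CPM, and stood at 0.46 (0.36 to 0.55). It stood at 0.45 in the barcodes with at most 1 marker UMI and was detected in 67.3% and 70.7% of thinned microglia, beside 81.3% and 71.7% of thinned members. Apod, a lipocalin, stood at 0.29 (0.15 to 0.43), and the chaperone Cryab at 0.33 (0.06 to 0.60). Trf, the iron carrier transferrin, gave 1933 and 1312 UMIs and 0.08 (-0.03 to 0.18), and the carbonic anhydrase Car2 stood at 0.07 (-0.07 to 0.21). The lactate transporter Slc16a1 gave only 40 and 28 UMIs.

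Genes of the respiratory chain and the ribosome that are coded in the nucleus leaned higher, and those coded in mitochondria lower. All 32 respiratory chain genes tested of 35 were above 0, with a median of 0.23 and 0 calls. Of their intervals 11 lay above 0, beside 11.2% of all genes tested. The highest of the 32 was Ndufb7 of complex I, with 142 and 69 UMIs and 0.56 (0.13 to 1.00). Cox8a of complex IV, a well counted one, gave 680 and 426 UMIs and stood at 0.19 (0.02 to 0.37). The list did not hold the ATP synthase gene Atp5d, which was called higher at 0.80 (0.41 to 1.20). Of 72 cytosolic ribosomal protein genes, a list added after the values were seen, 70 were above 0, with a median of 0.29, and 5 were called, all higher, beside 1.28% of all genes tested: Rps6, Rps16, Rps18, Rps20 and Rpl10. Without cluster 3 the call of Rpl10 was lost and 4 remained. Ribosomal protein genes have near-identical copies in the genome, so the counts of single ones are uncertain. Of 7 mitochondrially coded genes, 6 were below 0, with a median of -0.35: mt-Co1 stood at -0.35 (-0.58 to -0.11), mt-Co3 at -0.48 (-0.70 to -0.26) and mt-Atp6 at 0.18 (-0.05 to 0.41). The same 3 lists had medians of 0.20, 0.25 and -0.66 in the barcodes with at most 1 marker UMI. The median mitochondrial share of a member's UMIs was 0.131% in the heterozygote and 0.151% in the wild type.

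Actin genes, Capza2 among them, gave 1 call in each direction, and the list medians lay between 0.06 and 0.18. Of all genes tested 1.28% were called higher and 0.998% lower. Of 25 capping and severing genes 11 were tested, with a median of 0.06, 0 called higher and 1 lower, which was Capza2. Ssh2, the phosphatase that turns on cofilin, stood at 0.01 (-0.14 to 0.16), the adducins Add1 and Add3 at 0.13 and 0.02, and cofilin itself, Cfl1, at 0.36 (0.08 to 0.64). Gelsolin, Gsn, which severs filaments, stood at 0.06 (-0.23 to 0.36). Of 20 genes of the branching complex Arp2/3 and its WAVE activators 13 were tested, with a median of 0.09 and 0 called. Arpc1a stood highest of them, at 0.51 (0.19 to 0.83), and Actr2 at -0.18 (-0.49 to 0.13). Of 10 actin and monomer-binding genes, with a median of 0.18, Tpm1, a tropomyosin, was called higher at 0.62 (0.20 to 1.05) on 148 and 69 UMIs. The monomer-binding thymosin Tmsb4x gave 2677 and 1511 UMIs and 0.34 (0.25 to 0.43), Actb 1495 and 942 and 0.18 (0.07 to 0.30), and Enah, which lengthens filaments at their growing end, stood at -0.40 (-0.75 to -0.05). Tmsb4x stood at 0.29 and Actb at 0.15 in the barcodes with at most 1 marker UMI. Among microtubule and septin genes, with a median of 0.06 over 15, the septin Sept7 stood at 0.06, the tubulin Tubb4a at 0.15 (0.01 to 0.29) and Map7, a kinesin cofactor, at -0.17 (-0.27 to -0.07).

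**Figure D4:**
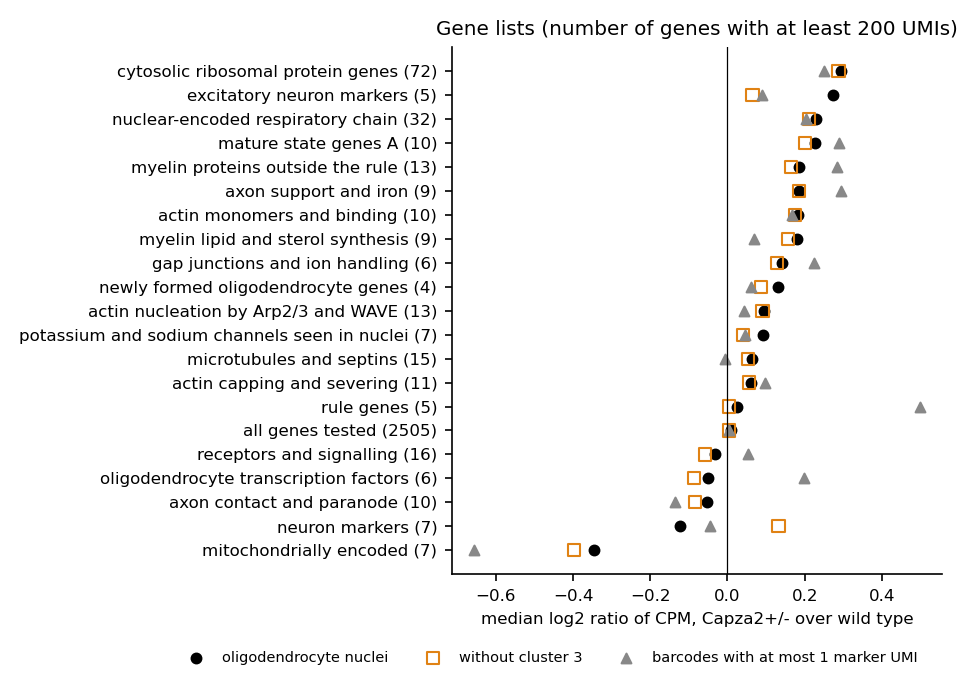
Median of the log2 CPM ratios (heterozygote over wild type) of each gene list with at least 4 genes tested, in oligodendrocyte nuclei (black circles), without cluster 3 (orange squares) and in barcodes with at most 1 marker UMI (grey triangles). Ribosomal protein genes stand highest at 0.29 and mitochondrially coded genes lowest at -0.35 in the members, and the neuron markers turn from -0.12 to 0.13 without cluster 3.

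Within the members, 4 clusters were found in the nuclei of both libraries clustered together. Cluster 0 held 627 nuclei (386 heterozygote and 241 wild type, median 1640 UMIs), cluster 1 held 482 (278 and 204, median 2018 UMIs), cluster 2 held 51 (26 and 25, median 3348 UMIs) and cluster 3 held the 15 neuron-rich nuclei. Their leading genes follow from the clustering and are a description. Their sizes are not compared between the libraries, because Ptgds, which leads cluster 0, itself differed, with 3841 and 2257 UMIs and a log2 ratio of 0.28 (0.21 to 0.36).

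Clusters 0 and 1 split along Ptgds against Enpp6. Ptgds, a prostaglandin D synthase typical of mature oligodendrocytes, was at 3944 CPM in cluster 0 and at 1323 CPM in the rest, and Apoe, a lipid carrier, at 1423 and 663 CPM. The gene model 7630403G23Rik, Slc13a1, a sulfate transporter, and Fbxw15 also led cluster 0. Cluster 1 was led by Agmo, an ether lipid monooxygenase, at 266 CPM against 41.9, and Enpp6, a choline phosphodiesterase, at 262 against 43.3. Selenop, Tmem117, Cntn3, Grik1 and the septin scaffold Anln followed. In nuclei thinned to 1000 UMIs, members without a UMI of Ptgds numbered 212 (heterozygote) and 172 (wild type), and Enpp6 was detected in 24.1% and 17.4% of them. With at least 3 UMIs of Ptgds there were 247 and 150 members, and Enpp6 was detected in 2.02% and 2.67%. Anln was detected in 45.3% and 39.0% of the former and in 21.5% and 20.7% of the latter. Apoe went the other way, with 52.4% and 45.3% against 78.9% and 66.7%. These genes lead clusters 0 and 1 of the same nuclei, so the shares only describe that split at a fixed depth.

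Cluster 2 held 51 deep nuclei. They held a median of 20 UMIs of the 5 marker genes, against 8 and 10 in clusters 0 and 1, at median depths of 3348 against 1640 and 2018 UMIs. The 15 genes of newly formed oligodendrocytes summed to 2835 CPM in it, against 741 and 863, of which 925 CPM came from the noncoding gene 9630013A20Rik, seen in 25.5% of its nuclei. Precursor markers summed to 910 CPM in it, against 141 and 89.7. Tnr alone gave 650 CPM of the 910 and was seen in only 15.7% of the cluster's nuclei. Cluster 2 was led by 9630013A20Rik, Kank1, Pdzrn3, the phosphatase Ptpro, Tnr, Nckap5 and Pcdh7. Synpr, a synaptic vesicle protein, was seen in 96.1% of its nuclei and in 21.1% of the rest. Only Bcas1, Enpp6, Tmem163 and 9630013A20Rik of the newly formed list reached 200 UMIs over the members. Gpr17 and Bmp4, early genes of that stage, gave 2 and 1 and 1 and 2 UMIs, and Casr 0, so the cluster was not named for it. Myelin genes outside the rule summed to 17773 CPM in it, the highest of the clusters.

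**Figure D5:**
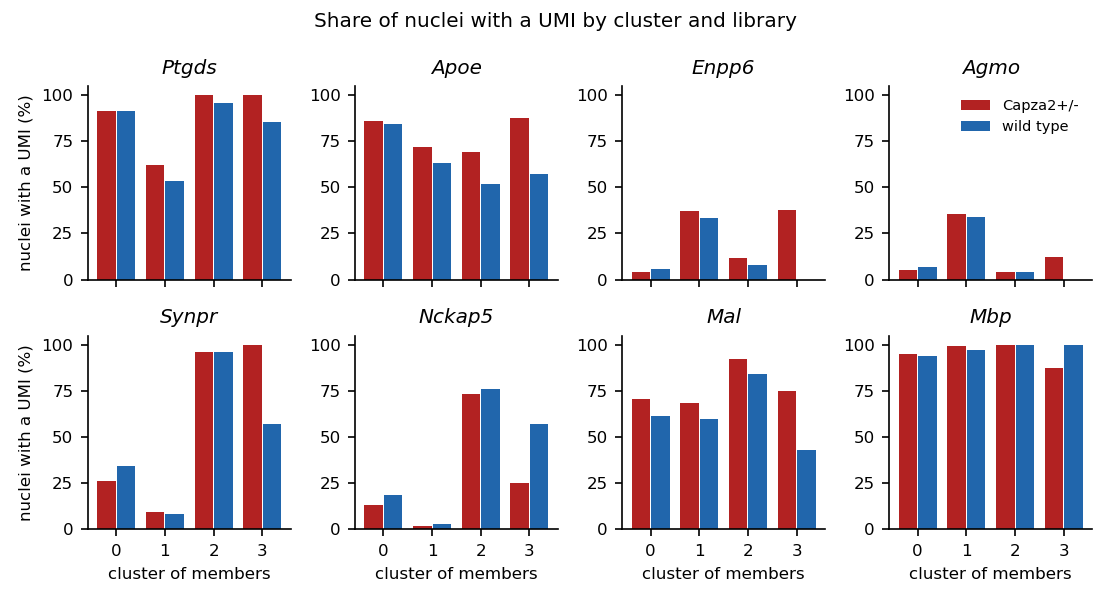
Share of nuclei with at least 1 UMI (percent, not thinned) of 8 genes in clusters 0 to 3 of the oligodendrocyte nuclei, in the Capza2+/- library (red) and the wild-type library (blue), without error bars. Enpp6 and Agmo stand highest in cluster 1 among clusters 0 to 2, Synpr and Nckap5 in cluster 2, and Mbp lies between 87.5% and 100% throughout, with only 8 and 7 nuclei behind the bars of cluster 3.

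Genes that did not lead the clusters were compared between the libraries within each. Mal stood at log2 ratios of 0.50 (0.29 to 0.72) in cluster 0, 0.39 (0.16 to 0.63) in cluster 1 and 0.63 (0.24 to 1.04) in cluster 2, so its value did not come from 1 cluster. Mbp stood at -0.07 (-0.19 to 0.06), 0.06 (-0.06 to 0.17) and 0.41 (0.19 to 0.62). Capza2 stood at -0.53 (-0.97 to -0.10) in cluster 0, with 92 and 89 UMIs, and at -1.0 (-1.58 to -0.43) in cluster 1, with 45 and 66. In cluster 2 it gave 3 and 15 UMIs, a ratio of -2.52 with a counting interval of -4.95 to -0.70, and in cluster 3 it gave 5 and 3. The differences between clusters were not tested.

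A few nuclei carried 9630013A20Rik. This antisense gene (GRCm38 chromosome 14, 84458639 to 84476424, minus strand), a marker of newly formed oligodendrocytes, gave 171 heterozygote and 45 wild-type UMIs and a log2 ratio of 1.44 (0.96 to 1.95). In cluster 2 it gave 156 and 29. It was seen in 22 heterozygote and 18 wild-type nuclei, and a single heterozygote nucleus held 79 of the UMIs, so its ratio rests on few nuclei. It was 0.55 (-0.35 to 1.5) after thinning and turned to -0.42 (-0.64 to -0.21) when no barcode was left out for genes of other lineages. The sources used here do not state the strand setting of the counting, so its reads and those of an overlapping gene may not be told apart. Synpr, another gene that led cluster 2, stood at -0.69 (-0.89 to -0.49) over all members outside cluster 3, on 375 and 431 UMIs. It was not called over all members. Of these UMIs 160 and 253 lay in cluster 2, where it stood at -0.86 (-1.16 to -0.57). In cluster 0 it stood at -0.41 (-0.73 to -0.09), and in cluster 1 at 0.38 (-0.41 to 1.20).

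State genes known from mature oligodendrocytes gave a mixed record. Of 12 genes of one mature set, led by Ptgds, Grm3 and Apod, 10 were tested, 9 were above 0 and the median was 0.23, beside 0.29 in the barcodes with at most 1 marker UMI. Grm3, a metabotropic glutamate receptor, gave 2182 and 1595 UMIs and -0.03 (-0.12 to 0.06), and Il33, an alarmin, gave 726 and 454 and 0.19 (0.02 to 0.37). Of the second set, led by Hapln2 and Gsn, 2 of 10 reached the floor. Klk6, its best known protease, gave 17 and 3 UMIs, at 11.9 and 2.94 CPM, a log2 ratio of 2.02 with a counting interval of 0.23 to 4.43. It was at that count close to the limit of what these nuclei can show.

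Summed markers of other cells were measured in the members. The choroid plexus markers, nearly all of them Ttr, summed to 702 and 173 CPM. The microglia markers summed to 113 and 74.5 CPM, the vascular markers to 14.0 and 31.4, the astrocyte markers to 421 and 374 and the precursor markers to 176 and 248. The neuron markers summed to 1869 and 2273 CPM, with Snap25 detected in 44.8% and 37.0% of thinned members and in 46.7% and 41.3% of thinned microglia. For Snap25 alone the members' share lay slightly below that of microglia in both libraries, and the part of free RNA in it was not tested. Without thinning, the whole neuron list gave 3.82 UMIs per heterozygote member and 5.17 per microglia nucleus. In the wild-type library it gave 4.86 and 3.52, so the order differed between the libraries. These values include cluster 3, where the list summed to 8162 CPM in the heterozygote and 17833 CPM in the wild type. In the other clusters it summed to at most 1742 and 1669 CPM. The order without cluster 3 was not tested.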

How the data were processed

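Nuclear RNA of hippocampus was measured in 2 droplet libraries (10x Genomics 3′ v3 chemistry, per the labels' protocols). The authors deposited raw UMI counts per gene and barcode, made with Cell Ranger 7.1.0 on mm10, per the submitters' processing notes. The strand and intron settings are not given in the sources used here. Of the gene IDs in the files, 32235 of 32285 were found in the GENCODE M21 annotation of GRCm38, which gave the gene coordinates. The files held 7801 heterozygote and 6512 wild-type barcodes with 62702888 and 58701532 UMIs, and 7211 and 6424 barcodes were kept.

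UMIs were summed over the members of each library. Ratios of CPM and of shares carry exact conditional binomial intervals, and shares Clopper-Pearson intervals, all at 95%. They cover counting error only. A fold of 1.5 was used for calls on genes with at least 200 UMIs. With 1 library per genotype no test was made. Named were the 15 highest and 15 lowest genes by the interval bound nearest to 0, in at least 5% of nuclei of a library and without mitochondrial genes, Xist, Tsix, Y-linked genes and gene models. Also named were the 25 genes highest against other barcodes, capping protein subunits, the markers, and for each gene list up to 6 members with the most UMIs and every member called. The members, the 30 gene lists, the tests and this rule were chosen with earlier results of these data known. Other genes, such as list members under the floor and those named for a cluster, were chosen after their values were seen.

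Other glia had at most 1 UMI of the 5 marker genes: precursors with at least 2 UMIs of Pdgfra and Cspg4, astrocytes with at least 4 of Gja1, Aqp4 and Slc1a3, and microglia with at least 3 of Csf1r and Inpp5d, each also without other lineages. Members were clustered together on 1500 variable genes (without Capza2, Ttr, mitochondrial, ribosomal protein, sex-linked and hemoglobin genes) with 20 components, 15 neighbours and Leiden resolution 0.5. Doublet scores came from Scrublet. The members were not filtered on them, since its automatic threshold marked 0.0139% of heterozygote and 8.05% of wild-type barcodes. Removing the top scores at the expected 5.77% and 5.14% took 7 and 5 members. The work ran under Python 3.11.15 with numpy 2.4.6, scipy 1.17.1, leidenalg 0.10.2 and scanpy 1.11.5, and the calls were tested on simulated data. The simulated counts held counting error only, so they could not test the effect of spread between nuclei. Levels are not compared between genes, since nuclear 3′ counts can include reads primed within introns. A few genes of the lists are counted in the lists' totals and are not reported here singly.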

Additional observations from a re-analysis of the deposited data

How the results depend on the processing

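No paired analysis was possible because each genotype had 1 library, and for the same reason no library could be left out. The log2 ratio of shares stayed between 0.33 and 0.39 and that of Capza2 between -0.85 and -0.56 over the alternatives run. Genes called higher, 32 (1.28% of those tested), became 13 (1.32%) after thinning, 223 (3.07%) with a floor of 50 UMIs and 332 (2.2%) with no floor beyond 1 UMI in each library. Genes called lower, 25 (0.998%), became 10 (0.621%) with at least 8 marker UMIs, 46 (0.571%) with no exclusion of other lineages, 7 (0.298%) without cluster 3, 4 (0.406%) after thinning, 179 (2.47%) with a floor of 50 UMIs and 343 (2.28%) with no floor. The myelin median of 0.18 became 0.11 with no exclusion of other lineages and 0.21 after thinning. With no exclusion of other lineages these genes changed sign: 9630013A20Rik (-0.42), Cntnap2 (0.56), Epha6 (0.50), Nav3 (0.082), Nrg3 (0.080), Nrxn3 (0.24), Pde4d (0.13), Snhg11 (0.11), Sorcs3 (0.10), Tafa1 (0.37) and Trpm3 (-0.15). With at least 8 marker UMIs so did Epha6 (0.070), Nrg3 (0.091) and Tafa1 (0.15), without cluster 3 (an alternative chosen after seeing the data) Lrrtm4 (-0.34) and Meg3 (0.018), and after thinning Lrrtm4 (-0.023). The cause was not tested, apart from the nuclei and genes that each alternative leaves out. Centring on the median gene, another library total, at least 1000 genes per nucleus and at most 1% mitochondrial UMIs each left all 233 genes compared within their counting intervals.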

Other observations

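Of the immune and stress genes only Calr and Hsp90b1 reached the floor of 200 UMIs, and of the immediate early genes only Jund. Calr and Jund were called higher, beside 1.28% of all genes tested, but too few genes of these lists were tested for a share. Calr, the chaperone calreticulin of the endoplasmic reticulum, gave 153 and 71 UMIs, a log2 ratio of 0.62 (0.21 to 1.05), and Hsp90b1 gave 270 and 141 and 0.45 (0.16 to 0.76). Hspa5, the main chaperone of that compartment, gave 125 and 66 and 0.44 (0.00 to 0.89), under the floor. In the barcodes with at most 1 marker UMI they stood at 0.31, 0.28 and 0.62. The downstream stress genes Atf4 and Ddit3 gave 36 and 22 and 23 and 16 UMIs, and Trib3 gave 0. Jund gave 139 and 65 UMIs and 0.61 (0.18 to 1.06), and Jun under the floor, gave 115 and 40 and 1.04 (0.51 to 1.60), beside 0.18 and 0.42 in the other barcodes. Fos gave 7 and 9 UMIs, Egr1 42 and 35, and Arc 24 and 21. The interferon-linked and complement genes B2m, H2-D1, H2-K1, C4b and Serpina3n held at most 27 UMIs each in the members of a library.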
